A study of Mus musculus with 8 samples.

Results

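The chromosome 2 block, named for a zinc-finger gene cluster, held 467 of the 72953 ALKBH5 peaks of this study, or 0.640%. A peak belonged to it if its summit lay on chromosome 2 from 174 to 178 Mb in the mouse build GRCm39. The stretch was chosen because peak numbers there differed between the genotypes, so every genotype value below is a description and none was tested. The del-cIDR libraries came from E14TG2a mouse embryonic stem cells whose own ALKBH5 has lost the intrinsically disordered region at its C-terminus. The FL libraries came from wild-type cells of that line, whose own ALKBH5 is full-length. Both were grown with LIF and inhibitors of MEK and GSK3, which keep stem cells undifferentiated, and were crosslinked with UV light (400 mJ/cm2, 254 nm) before their nuclei were isolated. Each genotype had 2 immunoprecipitates with a peak list each (del-cIDR 1, del-cIDR 2, FL 1 and FL 2), and 4 inputs were not analysed here. The labels give neither whether replicates were separate cultures nor how many clones the del-cIDR cells represent.

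ALKBH5 is a nuclear demethylase that takes N6-methyladenosine off RNA. In eCLIP, UV light links a protein to the RNA it touches, and the RNA recovered with the protein piles up as peaks where it was bound. KRAB zinc-finger genes encode DNA-binding repressors that recruit the co-repressor KAP1 (TRIM28), largely to transposable elements. They multiply by tandem duplication, so mouse chromosomes carry clusters of many closely similar copies. Peak lists of immunoprecipitates alone cannot tell apart more transcript and more binding per transcript. Reads of near-identical copies may have been placed at another copy or left out, and the part of either in the values below was not tested.

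The name table used here lists 80 genes between Edn3, which encodes the signalling peptide endothelin 3, and Phactr3, which encodes a regulator of phosphatase and actin. Of these, 32 are protein coding, 25 are pseudogenes and 21 are lncRNAs, and 9 of the protein-coding genes carry a Zfp (zinc finger protein) symbol. Its positions are in the older build GRCm38.p6, which cannot be set beside GRCm39 peak positions, so no gene is assigned to a peak. For the same reason the markers of stem cells and of other cell types were not analysed here. How alike the copies are was looked at in their promoters only, from RefSeq (GRCm38.p6), and their transcripts were not compared. A 14-base run, CTAACCCTAAGGGT, was found by comparing these promoters, and lay on the gene's strand in 28 of the 31 protein-coding genes with a promoter window (90.3%). Among all 32851 windows of 300 bases in RefSeq's promoter table, 33 held it on that strand (0.100%), and all of these belonged to 29 genes between Edn3 and Phactr3. On the other strand it occurred in 1 further gene there and 0 elsewhere. For these 29 genes the 80 bases around it, all before the start site, were compared, with identities between pairs of 72.5 to 100% (median 96.25%) and 13 distinct sequences. These identities include the 14 bases that all 29 share by selection, and genes without the run were left out. The sequence of Gm14440 is shared exactly by 9 genes, among them Zfp965, Zfp966, Zfp967, Zfp968, Zfp970 and Zfp973, that of Gm4631 by 7 genes and that of Gm14391 by 3. These are followed by Zfp931, Zfp971, Zfp972 and Gm14393, each with a sequence of its own, and capitals mark the shared 14 bases.
Gm14440 (chr2:175274966-175275045, plus strand): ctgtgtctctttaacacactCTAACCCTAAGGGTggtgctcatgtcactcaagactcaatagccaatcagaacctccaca
Gm4631 (chr2:175338291-175338370, minus strand): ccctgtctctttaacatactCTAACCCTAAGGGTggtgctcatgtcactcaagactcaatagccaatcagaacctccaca
Gm14391 (chr2:175206939-175207018, minus strand): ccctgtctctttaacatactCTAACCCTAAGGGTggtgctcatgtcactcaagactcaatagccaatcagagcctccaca
Zfp931 (chr2:178078516-178078595, minus strand): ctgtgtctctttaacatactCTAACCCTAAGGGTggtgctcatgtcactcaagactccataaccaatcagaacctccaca
Zfp971 (chr2:178023144-178023223, plus strand): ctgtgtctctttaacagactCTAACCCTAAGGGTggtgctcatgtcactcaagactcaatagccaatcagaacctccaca
Zfp972 (chr2:177925720-177925799, minus strand): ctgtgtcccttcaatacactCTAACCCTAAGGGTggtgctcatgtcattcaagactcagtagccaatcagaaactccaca
Gm14393 (chr2:175067856-175067935, minus strand): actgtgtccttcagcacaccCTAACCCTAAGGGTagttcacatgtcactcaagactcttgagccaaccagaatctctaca

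The block was crowded with FL peaks and held few del-cIDR peaks. The del-cIDR lists had 21 and 21 peaks in it, against 241 and 184 in the FL lists. These averaged 21.0 ± 0 in del-cIDR and 212.5 ± 40.3 in FL (SD, n = 2 each), a difference of -191.5 peaks and a ratio of 0.0988. The groups did not overlap, although the whole lists were of similar length, with 17584 and 18841 peaks in del-cIDR and 19892 and 16636 in FL. As a share of its list the block made up 0.119% and 0.111% in del-cIDR, against 1.21% and 1.11% in FL. On the rest of chromosome 2 the order was the other way round, with a mean of 1451.5 ± 60.1 peaks in del-cIDR and 1290 ± 112 in FL (SD, n = 2 each). Peaks covered 10.4 and 11.3 kb of the block in del-cIDR, against 165.6 and 82.5 kb in FL, so the FL replicates differed from each other more in covered length than in number.

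The size of the contrast depended on the peaks that were kept. Fold enrichment is the authors' ratio of a peak over the background of the peak caller, and whether that background came from the inputs or from the immunoprecipitate itself is unknown here. With a fold enrichment of at least 4, 2 and 4 del-cIDR peaks remained against 201 and 134 FL peaks. Over the whole lists this cut kept 5551 of 17584 and 5723 of 18841 del-cIDR peaks, against 9113 of 19892 and 6944 of 16636 FL peaks. It thus removed a larger share of the del-cIDR lists throughout. With peaks of a library within 5 kb joined, the block held 13 and 10 joined peaks in del-cIDR and 60 and 46 in FL.

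The contrast lay away from the start of the block. In the first 1 Mb window, from 174 Mb, the del-cIDR lists had 13 and 17 peaks and the FL lists 34 and 23. From 175 Mb they had 1 and 1 against 39 and 27, from 176 Mb 2 and 1 against 101 and 77, and from 177 Mb 5 and 2 against 67 and 57. The window just before the block, from 173 Mb, held 10 and 13 del-cIDR peaks and 12 and 11 FL peaks. The window just after it, from 178 Mb, held 2 and 1 in del-cIDR and 2 and 1 in FL. Of the 40 bins of 100 kb in the block, 12 held a del-cIDR peak and 31 an FL peak, and 20 held FL peaks with no del-cIDR peak. Bins outside the block were not counted, so nothing is read from these bin counts.

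**Figure D1:**
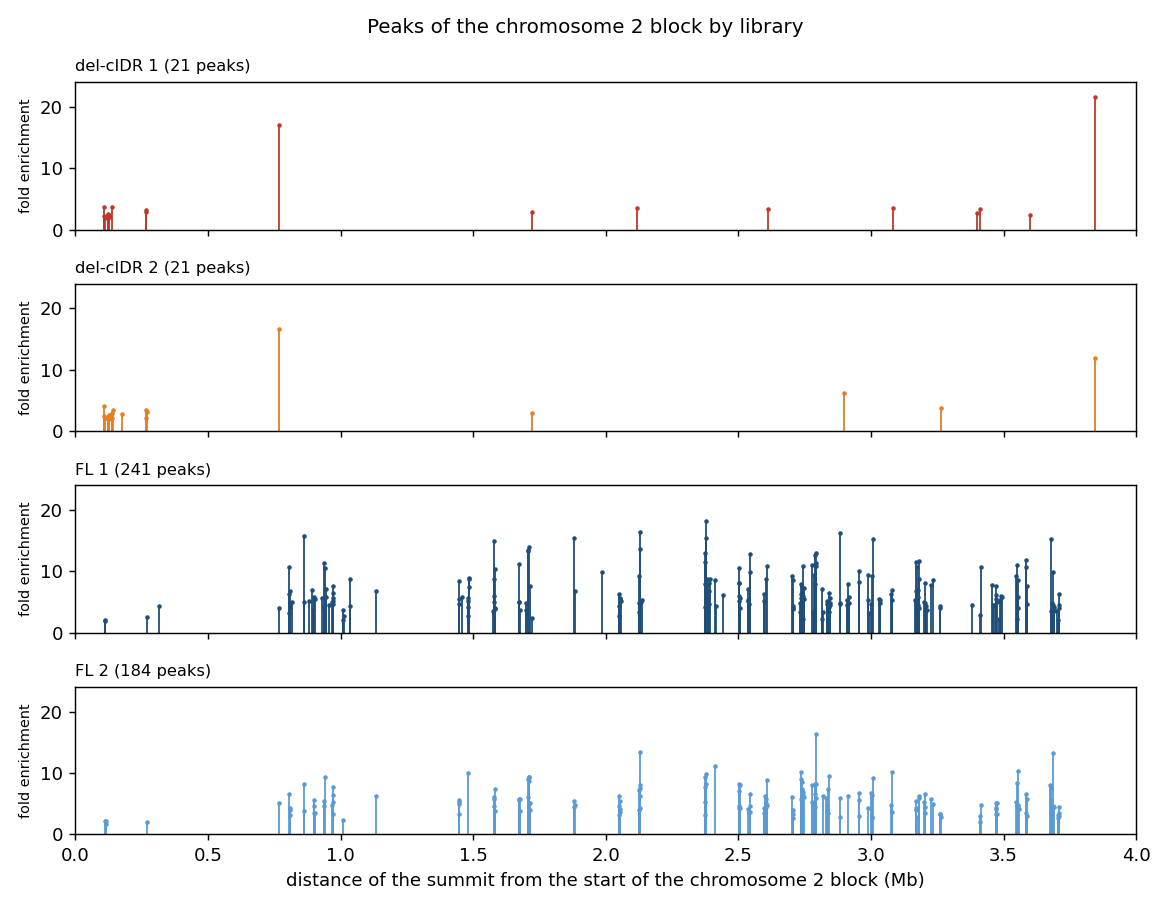
Every peak of the block as a line at its summit, with the distance of the summit from the start of the block in Mb across and the authors' fold enrichment up, and 1 panel per library. Of the 21 peaks of each del-cIDR list, 12 and 16 sit near the left end, whereas 237 and 180 FL peaks fill the stretch to the right of the widest gap.

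The widest stretch with no summit in any list ran from 174314074 to 174769336, 455 kb, and was used to divide the block after the values were seen. In the proximal part, before this gap, the del-cIDR lists had 12 and 16 peaks and the FL lists 4 and 4. In the distal part, after it, they had 9 and 5 peaks against 237 and 180. The genotypes thus stood in opposite order on the 2 sides, with a mean of 14 ± 2.83 in del-cIDR and 4 ± 0 in FL proximally, and 7 ± 2.83 in del-cIDR and 208.5 ± 40.3 in FL distally (SD, n = 2 each). Covered length behaved alike, at 7.54 and 9.75 kb in del-cIDR against 1.48 and 1.44 kb in FL in the proximal part. In the distal part it was 2.87 and 1.53 kb in del-cIDR against 164.1 and 81.0 kb in FL. The zinc-finger label could not be checked against gene positions for either part, so the block may also hold genes outside the cluster. Of the 42 del-cIDR peaks of the block, 28 lay in the proximal part, so del-cIDR values of the whole block rest mostly on that part.

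FL peaks of the distal part came in dense groups. The median distance from one summit to the next in the same list was 356604 and 766517 bp in del-cIDR, against 1531.5 and 1258 bp in FL. No neighbouring del-cIDR summits lay within 5 kb of each other there (0 and 0%), against 75% and 75.4% of neighbouring FL summits. These shares rest on 8 and 4 neighbouring pairs in del-cIDR and on 236 and 179 in FL. Spacing depends on peak number, on which the block was chosen, so nothing is read from this difference between genotypes. Joining the peaks of all 4 libraries within 5 kb gave 62 groups with a median length of 4013.5 bp and a median gap of 25.7 kb between them. A del-cIDR peak occurred in 11 groups and an FL peak in 57, and 37 groups had peaks of both FL replicates and none of del-cIDR. No group held more than 1 peak of a single del-cIDR library, whereas 7 groups held 10 or more peaks of a single FL library. Del-cIDR peaks stood alone in 5 groups and shared the other 6 with FL peaks. Groups were formed in the distal part only, so these counts have no share elsewhere to stand beside. The block was chosen on this contrast, and nothing is read from them.

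The longest group, chr2:176372177-176393077, extended over 20.9 kb with 0 and 0 del-cIDR peaks and 16 and 6 FL peaks. The group chr2:176778222-176792524 held 0 and 0 del-cIDR peaks and 9 and 12 FL peaks, and chr2:176732699-176746944 held 0 and 0 against 12 and 8. The 2 FL replicates were thus not ordered the same way in every group. One group with many FL peaks also had a del-cIDR peak, chr2:176594633-176611002, with 1 and 0 del-cIDR peaks and 4 and 10 FL peaks. Between groups lay long stretches with no peak in any list, the longest distal one 312.8 kb, from 175131914 to 175444708. With joining at 2 kb there were 83 groups, 47 of them with both FL replicates and no del-cIDR peak, and at 10 kb there were 51, 34 of them of that kind. These counts too have no share outside the distal part beside them.

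**Figure D2:**
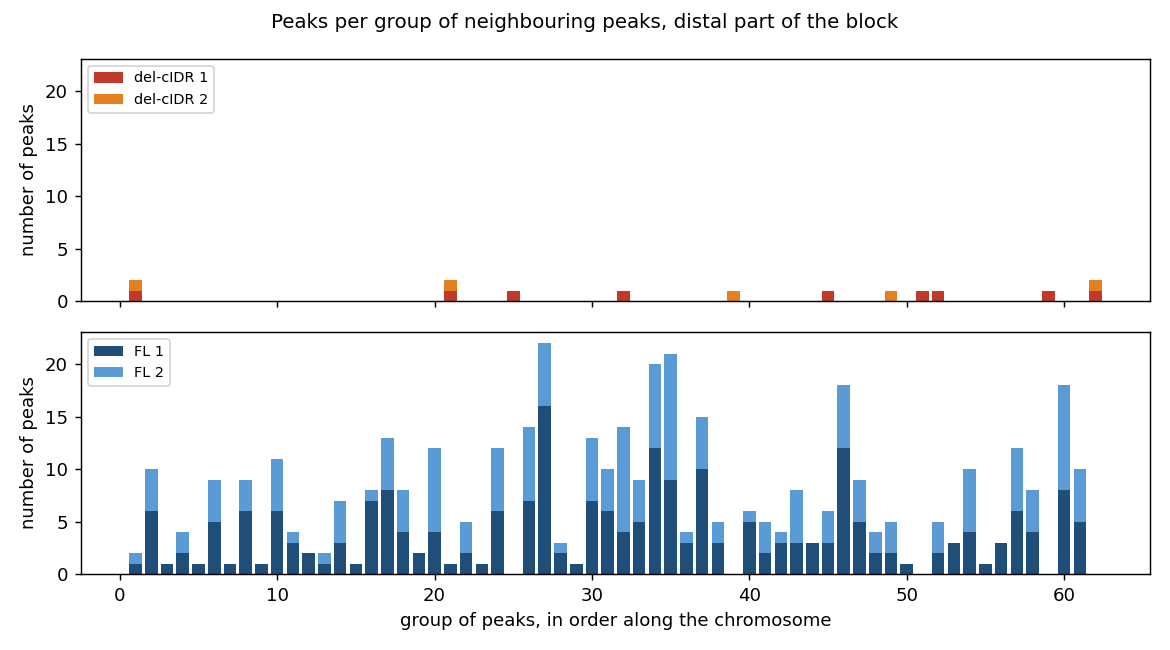
Number of peaks in each of the 62 groups of the distal part (peaks of any library within 5 kb joined), in order along the chromosome, with del-cIDR replicates stacked above and FL replicates stacked below. Del-cIDR bars reach 2 peaks at most and occur in 11 groups, and FL bars occur in 57 and reach 22.

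Merged regions join peaks of any library that overlap by at least 1 bp, and the block held 271 of them. Both del-cIDR lists and neither FL list had a peak at 11 regions (4.06%), against 17.7% of all 43029 regions of the series. Both FL lists and neither del-cIDR list had one at 133 (49.1%), against 17.5% of all regions, and all 4 lists at 2 (0.738%), against 4.70%. The block was chosen on this contrast, so nothing is read from these shares. The exact (Clopper-Pearson) 95% interval of the FL share was 43.0 to 55.2%, which covers counting of regions only. Without FL replicate 2 the count became 237, since any region with an FL 1 peak and no del-cIDR peak then enters it. Peaks of del-cIDR 1 alone were found at 7 regions (2.58%, against 12.6% of all regions) and of del-cIDR 2 alone at 5 (1.85%, against 15.0%). Peaks of FL 1 alone were found at 103 regions (38.0%, against 18.7%) and of FL 2 alone at 7 (2.58%, against 6.54%). Peaks of both genotypes met at 5 regions (1.85%, against 12%).

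Region classes were also counted on either side of the widest gap, a division made after the values were seen. Of the 21 proximal regions, 10 had peaks in both del-cIDR lists and neither FL list (47.6%, against 17.7% of all regions). The reverse held at 0 of them, and 1 had a peak in all 4 lists. Of the 250 distal regions, 133 had peaks in both FL lists and neither del-cIDR list (53.2%, against 17.5% of all regions). The reverse held at 1 of them, and 1 had a peak in all 4 lists. A del-cIDR peak of any kind occurred in 11 distal regions (4.40%, against 57.3% of all regions). As for the whole block, nothing is read from these shares.

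**Figure D3:**
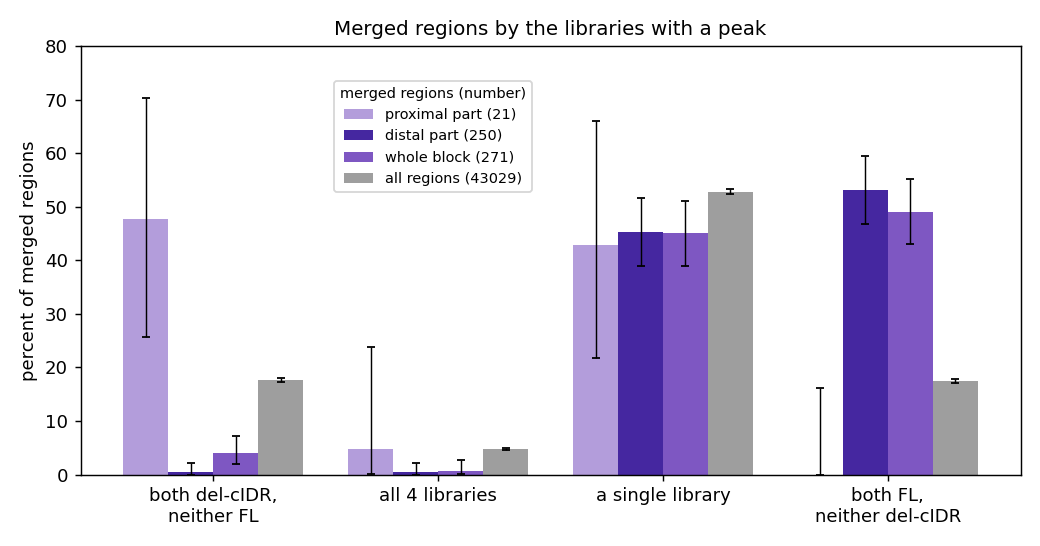
Percent of merged regions by the libraries with a peak there, for the proximal and distal parts, the whole block and all 43029 regions of the series, with bars for exact 95% binomial intervals over regions. Regions of both FL and neither del-cIDR list make up 53.2% of the distal part and 0% of the proximal part, where those of both del-cIDR and neither FL list make up 47.6%.

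The 10 regions of both FL and neither del-cIDR list with the best mean rank (peaks ranked within their list by −log10 q) fell in 6 of the distal groups, and 4 of these regions measured 2 kb or more. First was chr2:176375826-176376745, with 18.2-fold and 9.85-fold enrichment in FL 1 and FL 2 and ranks 161 and 403, and no peak in del-cIDR. The summits of the FL replicates lay 53 bp apart there. Next came chr2:175708127-175710862, with 13.5-fold and 8.72-fold enrichment, where FL 1 had 1 peak of 2736 bp and FL 2 had 3 peaks. The best ranked summits of that region lay 1657 bp apart, the widest distance of the 10. The region chr2:177005146-177007599 had 15.2-fold and 9.18-fold enrichment with summits 5 bp apart.

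The longest group held 3 of the 10 regions, the first and those at chr2:176376950-176377763 and chr2:176372777-176374155. The others were chr2:176127782-176129698, chr2:176778222-176782050, chr2:176129765-176130894, chr2:176605031-176609159 and chr2:177003254-177005116. Over the 10, the FL summits lay 1 to 1657 bp apart (median 19.0 bp), and the highest enrichment in each FL list was 6.43-fold or more. In each of the 10 the FL 1 enrichment was above the FL 2 enrichment.

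Both del-cIDR lists had a peak at 14 regions of the block (5.17%, against 25.5% of all regions), 11 of them proximal and 3 distal. The del-cIDR summits of these regions lay 0 to 420 bp apart (median 2.00 bp). The proximal ones had 1.85-fold to 4.16-fold enrichment in del-cIDR. Of these, 5 lay close together between 174121438 and 174126131, each with summits of both del-cIDR lists and no FL peak. The region with the best rank of the proximal ones, chr2:174108046-174108830, had 3.72-fold and 4.16-fold enrichment in del-cIDR and no FL peak. At chr2:174110135-174110778 all 4 lists had a peak, with 1.85-fold and 2.11-fold enrichment in del-cIDR and 1.94-fold and 2.09-fold in FL.

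The 3 distal regions of both del-cIDR lists were short. The region chr2:177843613-177843914, 302 bp, had 21.6-fold and 11.9-fold enrichment in del-cIDR at ranks 880 and 1323, and no FL peak. It held the last peak of the block and the highest enrichment of any del-cIDR peak in it. At chr2:174769233-174769541 the del-cIDR lists had 17.0-fold and 16.7-fold enrichment and the FL lists 3.95-fold and 5.15-fold, in a region of 309 bp that opens the distal part. The region chr2:175722194-175722586 had 2.92-fold and 2.96-fold in del-cIDR and 2.37-fold in FL 1, with no FL 2 peak.

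Among the 14 regions with a peak in only 1 del-cIDR list, the best ranked was chr2:176897643-176897945, with 6.23-fold enrichment in del-cIDR 2 and no FL peak. At chr2:177263627-177263931 del-cIDR 2 had 3.74-fold and FL 2 had 2.81-fold enrichment. At chr2:174268994-174269632, in the proximal part, del-cIDR 2 had 3.13-fold and the FL lists 2.48-fold and 2.02-fold. The other 2 of the 5 best ranked, chr2:177081325-177081639 and chr2:177409832-177410142, had 3.56-fold and 3.35-fold in del-cIDR 1 and no FL peak.

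Widths differed by side as well. In the proximal part the median peak width was 446 and 552.5 bp in del-cIDR, against 366.5 and 338.5 bp in FL. In the distal part the del-cIDR medians were 311 and 303 bp, near the shortest peaks of those lists, against FL medians of 428 and 321.5 bp. The widest distal del-cIDR peaks measured 387 and 309 bp, and the widest FL peaks 5345 and 2030 bp. Widths of 2 kb or more occurred in 0 and 0 del-cIDR peaks and in 10 and 1 FL peaks of the block. As shares these FL counts were 4.15 and 0.543%, against 4.15 and 2.17% of the whole FL lists, so the block's shares were the same as, or below, those of the whole lists. Such peaks made up only 0.0910 and 0.138% of the whole del-cIDR lists. Their absence among 21 and 21 del-cIDR peaks is thus not particular to the block. The widest FL 1 peak was chr2:177674697-177680041, with 15.2-fold enrichment, and the widest FL 2 peak chr2:177005539-177007568 lay in a region named above. The widest del-cIDR peaks of the block were proximal and at the same place, chr2:174123578-174124804 (1227 bp) in del-cIDR 1 and chr2:174123581-174124631 (1051 bp) in del-cIDR 2.

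**Figure D4:**
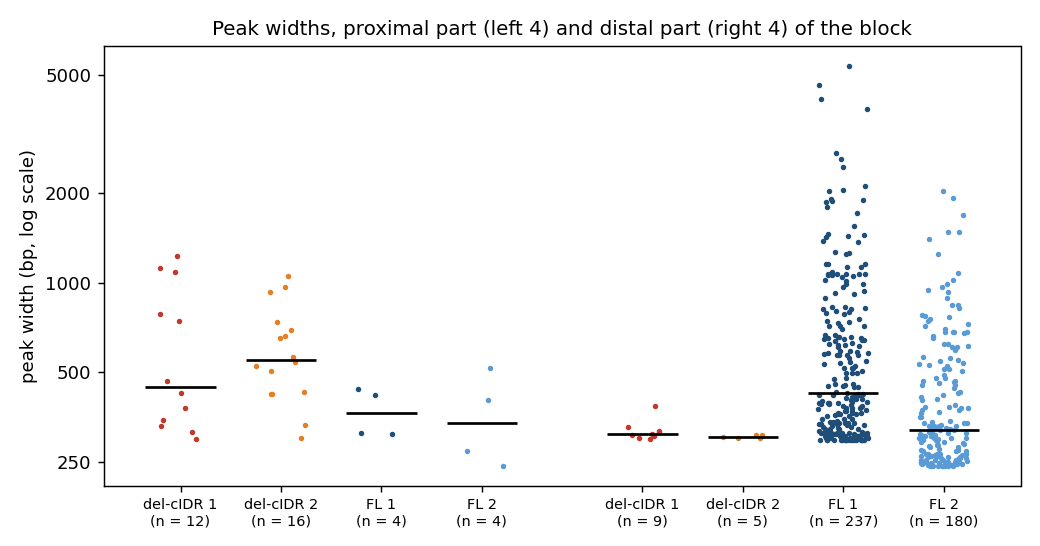
Width in bp (log scale) of every peak of the block by library, with the proximal part as the left 4 columns and the distal part as the right 4, and a black line at each median. Distal del-cIDR peaks all lie at or below 387 bp, whereas FL peaks there reach 5345 and 2030 bp.

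Replicates of a genotype shared many of their peaks in the block. Of the del-cIDR peaks, 14 of 21 overlapped a peak of the other del-cIDR list in each direction (66.7%). Of the FL peaks, 137 of 241 in FL 1 overlapped an FL 2 peak (56.8%) and 176 of 184 in FL 2 overlapped an FL 1 peak (95.7%). Outside the block these shares were 64.5 and 59.7% in del-cIDR and 53.9 and 76.0% in FL. In the block, 27 FL 1 peaks overlapped more than 1 FL 2 peak. FL 1 peaks with an FL 2 partner had a median enrichment of 7.06-fold and width of 614 bp, against 4.78-fold and 336 bp for those without. Among peaks with an overlapping partner in the other replicate, the partner's nearest summit lay a median of 2.00 bp away in both del-cIDR lists. This distance was 27.0 bp from FL 1 to FL 2 and 47.5 bp from FL 2 to FL 1. Peaks without a partner were left out.

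Peaks inside the block were set against all other peaks of the same list, a comparison of position and not of genotype. The median within-list rank, as a percentile in which lower is better, was 28.1 and 26.6 for del-cIDR peaks of the block and 33.6 and 36.5 for FL peaks of the block, while peaks elsewhere lay at the middle of their lists. The difference was lower in 4 of 4 libraries, with a mean of -18.9 ± 4.58 percentage points (SD, two-sided exact sign-flip permutation test, adjusted p = 0.156, n = 4). Its unadjusted p was the smallest that 4 libraries allow, which lies above 0.05, and 5 such comparisons were adjusted together (Benjamini-Hochberg). Median width was greater in the block in 4 of 4 libraries, by 5.00, 174, 45.0 and 31.0 bp in del-cIDR 1, del-cIDR 2, FL 1 and FL 2 (mean 63.75 ± 75.3, exact sign-flip permutation test, adjusted p = 0.156). Without del-cIDR 2 the mean was 27.0 bp. The del-cIDR differences rest on proximal peaks, since distal peaks alone were narrower than peaks elsewhere by medians of 311 against 325 bp in del-cIDR 1 and 303 against 331 bp in del-cIDR 2. In FL distal peaks were wider, by 49.0 and 31.0 bp. The share of peaks that overlapped the other replicate was higher in 4 of 4 libraries, by 2.21, 7.01, 2.90 and 19.7 percentage points in the same order (mean 7.95 ± 8.09, exact sign-flip permutation test, adjusted p = 0.156). Overlap depends on how densely the other list's peaks lie, and the block was chosen on peak numbers. Nothing is therefore read from this p-value. Without FL 2 the mean difference in overlap was 4.04 points. With distal peaks alone the differences were -31.1, 0.345, 3.02 and 20.7 points in the same order (mean -1.77). The first of these rests on 9 del-cIDR 1 peaks, and it alone was lower. None of these passed 0.05.

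Inside the block the del-cIDR lists had median fold enrichments of 2.82 and 2.86, and the FL lists 5.56 and 5.11. Outside it the medians were 3.17 and 3.16 in del-cIDR, against 3.78 and 3.58 in FL. The libraries moved in different directions, lower in both del-cIDR lists and higher in both FL lists, with a mean difference of 0.662 ± 1.15 (SD, exact permutation p = 0.500, adjusted p = 0.500, n = 4). Within the block the medians were 2.34 and 2.36 in del-cIDR and 2.28 and 2.05 in FL in the proximal part. In the distal part they were 3.35 and 6.23 in del-cIDR, from 9 and 5 peaks, and 5.63 and 5.14 in FL, above the medians elsewhere in all 4 libraries.

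The closest counterparts were a cluster on distal chromosome 4, with summits from 144119372 to 147972139, and one on chromosome 13 from 62 to 68 Mb, both also rich in FL peaks. They held 34 and 37 del-cIDR against 324 and 344 FL peaks on chromosome 4, and 48 and 40 against 260 and 229 on chromosome 13. Their FL peaks were also closely spaced. Neighbouring FL summits within 5 kb made up 64.7 and 65.9% on chromosome 4 and 54.8 and 56.1% on chromosome 13. In the whole chromosome 2 block they made up 74.2 and 74.9%. Median widths in the chromosome 2 block exceeded those of the chromosome 4 cluster in 4 of 4 libraries, by 21.0, 199, 29.0 and 17.5 bp in the order above (mean 66.6 ± 88.4, exact sign-flip permutation test, adjusted p = 0.156, n = 4). The del-cIDR differences again rest on proximal peaks, since distal peaks alone differed from the chromosome 4 cluster by 2.00 and -3.00 bp in del-cIDR and by 33.0 and 17.5 bp in FL. The mean difference turned to -11.1 bp among peaks of at least 4-fold enrichment. The region share of both FL and neither del-cIDR list was 49.1% in the block, 51.2% on chromosome 4 and 42.6% on chromosome 13, and FL 1 alone made up 38.0, 23.2 and 28.9%. These shares were not tested. Median rank percentiles were 37.0 and 37.6 in del-cIDR and 20.6 and 22.0 in FL on chromosome 4. On chromosome 13 they were 33.3 and 33.3 in del-cIDR and 38.7 and 40.3 in FL. A rank better than the middle of the list was thus not particular to the chromosome 2 block.

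At the edges of the block, the last peak before it was chr2:173972355-173972654 (del-cIDR 1, 7.73-fold) and the first inside it chr2:174108081-174108821 (del-cIDR 2, 4.16-fold). The last inside was chr2:177843613-177843913 (del-cIDR 1, 21.6-fold) and the first after it chr2:178130692-178130993 (del-cIDR 2, 15.4-fold).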

How the data were processed

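Binding of ALKBH5 to nuclear RNA was measured by eCLIP. The submitters' processing notes name GRCm39 and the tools MACS2, UMI-tools, STAR and cutadapt. Their versions and settings were not given in the sources used here. The authors deposited 1 peak list per immunoprecipitate, giving each peak's score, fold enrichment (a ratio) and −log10 p- and q-values. The deposited summit column holds an offset in bases, of another kind than these units, counted from the start of the peak. The score was not used. Peaks carry no strand, read depth is unknown, and intervals cover counting only. The lists named as knock-in were taken as del-cIDR, the only other genotype.

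Members and comparisons were chosen with earlier results of these data known. All peaks with a summit in the block were kept. Overlaps needed 1 bp. Positions are 1-based. Named regions were the 10 best ranked of both FL and neither del-cIDR list, all of both del-cIDR lists, the 5 best ranked of the other regions with a peak in 1 del-cIDR list, the widest peak per library and the peaks at the edges. Medians in the block and elsewhere were compared within libraries by an exact sign-flip permutation test (Python 3.11.15, numpy 2.4.6, pandas 2.3.3). Counts of region classes were checked on simulated data, where they were recovered for 100.0% of 4000 regions. The simulated regions lay far apart, with at most 1 peak per library. Dense regions that join several peaks of a library, as in the block, were not simulated. Gene assignment, cell type markers and sequence at peaks were not analysed here. The sign-flip test treats 2 del-cIDR and 2 FL libraries as 4 of a kind, so its p-values mix differences between genotypes and between replicates. With 4 libraries this test cannot give a p-value below 0.125. The p-values speak only for these libraries.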

Additional observations from a re-analysis of the deposited data

Results flagged for a closer look

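Median fold enrichment in the chromosome 2 block, minus that of all other peaks of the same list, was -0.357 in del-cIDR 1 and -0.295 in del-cIDR 2, against 1.78 in FL 1 and 1.52 in FL 2. Both del-cIDR libraries moved one way and both FL libraries the other. The difference between the genotypes was not tested, since the block had been chosen on that contrast. The del-cIDR medians rest on 21 and 21 peaks and the FL medians on 241 and 184. Most of these del-cIDR peaks lay before the widest gap, where enrichment was low in every library, with medians of 2.34 and 2.36 in del-cIDR and 2.28 and 2.05 in FL. After that gap the medians were 3.35 and 6.23 in del-cIDR, above the 3.17 and 3.16 of the other peaks of those lists, so the del-cIDR direction turns when the distal part is taken alone. In FL they were 5.63 and 5.14 there, above 3.78 and 3.58 elsewhere.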

How the results depend on the processing

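The log2 ratio of del-cIDR over FL peak numbers was -3.34. It became -5.80 with a fold enrichment of at least 4, -2.20 with peaks within 5 kb joined, -4.90 in the distal part alone and 1.81 in the proximal part alone. For covered length it was -3.52, and became -6.55 with a fold enrichment of at least 4, -5.80 distally and 2.57 proximally. The division into parts, its use in every comparison and the use of chromosome 13 in place of chromosome 4 were chosen after the data were seen. Leaving out 1 library at a time gave -3.52 to -3.13 for peak numbers and -3.93 to -2.93 for covered length. Regions of both FL and neither del-cIDR list numbered 133, with 102 to 133 under other thresholds, overlaps and merging distances, and 133 to 237 with 1 library left out. The width difference from chromosome 4 was -11.1 bp with a fold enrichment of at least 4, against 66.6 bp with all peaks and 22.5 to 83.0 bp with 1 library left out. The causes of these changes were not tested. With 1 library left out, differences between the block and other peaks kept their direction, at 27.0 to 83.3 bp for width, 0.291 to 1.00 for enrichment, -20.7 to -17.4 points for rank and 4.04 to 9.86 points for replicate overlap. With distal peaks alone, the mean difference in replicate overlap turned to -1.77 points, although only del-cIDR 1, with 9 peaks there, was lower. The mean width difference of distal peaks was 9.50 bp from other peaks and 12.4 bp from chromosome 4, and those of enrichment and rank were 1.66 and -18.1. No paired analysis was possible because the genotype comparison has no stated pairs of libraries. It was not tested, since the block was chosen on it. The comparisons with other peaks were paired within libraries. Read depth is unknown, so weak peaks missing from a list may be undetected there.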
